A study of Mus musculus with 28 samples.

Results

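The insulin and insulin-like growth factor (IGF) signalling genes described here are Igf1, Igfbp1, Igfbp2, Igfbp4, Igfals, Ghr, Insr, Irs1, Irs2 and Akt2. They are 10 of the 36072 gene symbols in the count tables. They were taken by symbol as a pathway, with earlier results of these data known, and the rule itself uses no measured value. Their transcripts were counted in the livers of 7 Mif-2-/-Apoe-/- mice and 7 Apoe-/- mice, all female and fed a cholesterol-rich high-fat diet for 12 weeks, begun at 8 weeks of age. Mif-2-/-Apoe-/- mice lack Mif-2 (gene symbol Ddt), the cytokine D-dopachrome tautomerase, in all cells, while Apoe-/- mice keep it. Both groups lack Apoe, which leaves remnant lipoproteins in the blood. No group with intact Apoe and none on another diet was analysed here. The comparison asks what the loss of Mif-2 changes in the liver of hyperlipidaemic mice.

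Growth hormone acts on liver through its receptor (Ghr) and raises the transcription of Igf1 and Igfals. IGF-1 then circulates bound to IGF-binding proteins, and the product of Igfals joins the ternary complex that keeps it in plasma. Insulin acts through its receptor (Insr), the docking proteins IRS-1 and IRS-2 and the kinase AKT2. AKT2 keeps forkhead (FOXO) transcription factors out of the nucleus and so lowers transcription of genes such as Igfbp1 and Irs2 in fasted and fed cycles. Igfbp2 and Igfbp4 encode further binding proteins of the family.

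Igfbp1 carries the best known insulin response element of the group, so its promoter is shown with those of both Irs genes. The RefSeq sequences (build GRCm38.p6) are written in the direction of transcription. Capitals mark TGTTTTG or TATTTTG, the core of the insulin response element, searched on both strands, and CAAAACA is TGTTTTG read on the opposite strand. The Igfbp1 stretch is chr11:7197537-7197781, plus strand, the Irs1 stretch is chr1:82291441-82291574, minus strand, and the Irs2 stretch is chr8:11008936-11008990, minus strand.
Igfbp1: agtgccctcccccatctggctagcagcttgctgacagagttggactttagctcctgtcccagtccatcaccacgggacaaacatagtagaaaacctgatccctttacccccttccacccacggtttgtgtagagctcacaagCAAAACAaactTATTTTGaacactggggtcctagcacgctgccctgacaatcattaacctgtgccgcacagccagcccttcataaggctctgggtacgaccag
Irs1: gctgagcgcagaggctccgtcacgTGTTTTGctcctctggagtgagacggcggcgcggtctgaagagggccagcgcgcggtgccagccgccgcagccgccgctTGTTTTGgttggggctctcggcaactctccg
Irs2: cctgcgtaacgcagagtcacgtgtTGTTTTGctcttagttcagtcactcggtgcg
The Igfbp1 stretch held both forms, at bases -108 to -102 and -97 to -91 from the RefSeq start. Irs1 held TGTTTTG at -111 to -105 and at -32 to -26, and Irs2 held it at -37 to -31. Among all 32851 promoter windows of 300 bases, 10.2% held either form and 0.472% held both. The 9 genes other than Insr gave 16 windows, as some have several starts, and 6 of these 9 genes held neither form. The forkhead letters TGTTTAC stood in 1 window of these genes, an Igfals window, and in 3.65% of the 32851 windows. A match describes letters in a window and was not tested as a binding site.

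The 28 libraries held 541651 to 1531192 counts each, and the 2 libraries of each mouse were summed to 1336787 to 2715022 counts. Each count is 1 unique molecular identifier. Levels are given as CPM, counts scaled to a common library size with TMM factors. Ddt averaged 4.48 ± 1.55 CPM of total counts in Mif-2-/-Apoe-/- mice and 107 ± 26.1 in Apoe-/- mice (SD, n = 7 each; two-sided exact permutation p = 0.000583, the smallest that the design allows). Ribosomal RNA took 17.7 to 51.8% of counts in Mif-2-/-Apoe-/- mice and 24.8 to 47.4% in Apoe-/- mice. All 8 hepatocyte markers passed the filter on low counts, and their summed level, most of it Alb, gave an exact permutation p of 0.665 (n = 7 each). Mif-2-/-Apoe-/- mouse 3 stood apart, with 4814 CPM over 6 skeletal muscle genes, against at most 49.5 CPM in any of the other 13 mice. Values without this mouse are given beside the results that rest on it. In whole liver, fewer cells of a type and less RNA per cell cannot be told apart.

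All 10 genes passed the low-count filter, which kept 9684 genes. By the edgeR quasi-likelihood F test with Benjamini-Hochberg adjustment over those genes, 0 of the 10 had an adjusted p below 0.05, against 0.217% of all genes tested (21 genes, 13 higher and 8 lower, or 7 higher and 14 lower with library totals in place of TMM). At an unadjusted p below 0.05, Igfbp1, Igfbp2 and Irs2 were higher in Mif-2-/-Apoe-/- livers, while 7.37% of all genes were higher at that level. Of the 10 genes, 0 were lower at that level. The share of all genes that were lower was not counted, so this 0 has no background beside it. The log2 fold change, Mif-2-/-Apoe-/- over Apoe-/-, was positive for 6 genes and negative for 4, with a median of 0.08, beside 0.01 over all genes tested. DESeq2 on the same genes called 1 of the 10 (Igfbp1) and 0.702% of all genes. DESeq2 with the gene filter that the study describes called the same 1 gene and 96 of the 17430 genes fitted (0.551%). That share counts genes to which DESeq2 gave no adjusted p, Igfbp5 among them. The share among genes that could be called is therefore higher, and it was not counted. With no filter on low counts, edgeR called Igfbp1, Igfbp2 and Irs2 and 0.954% of all genes.

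**Figure D1:**
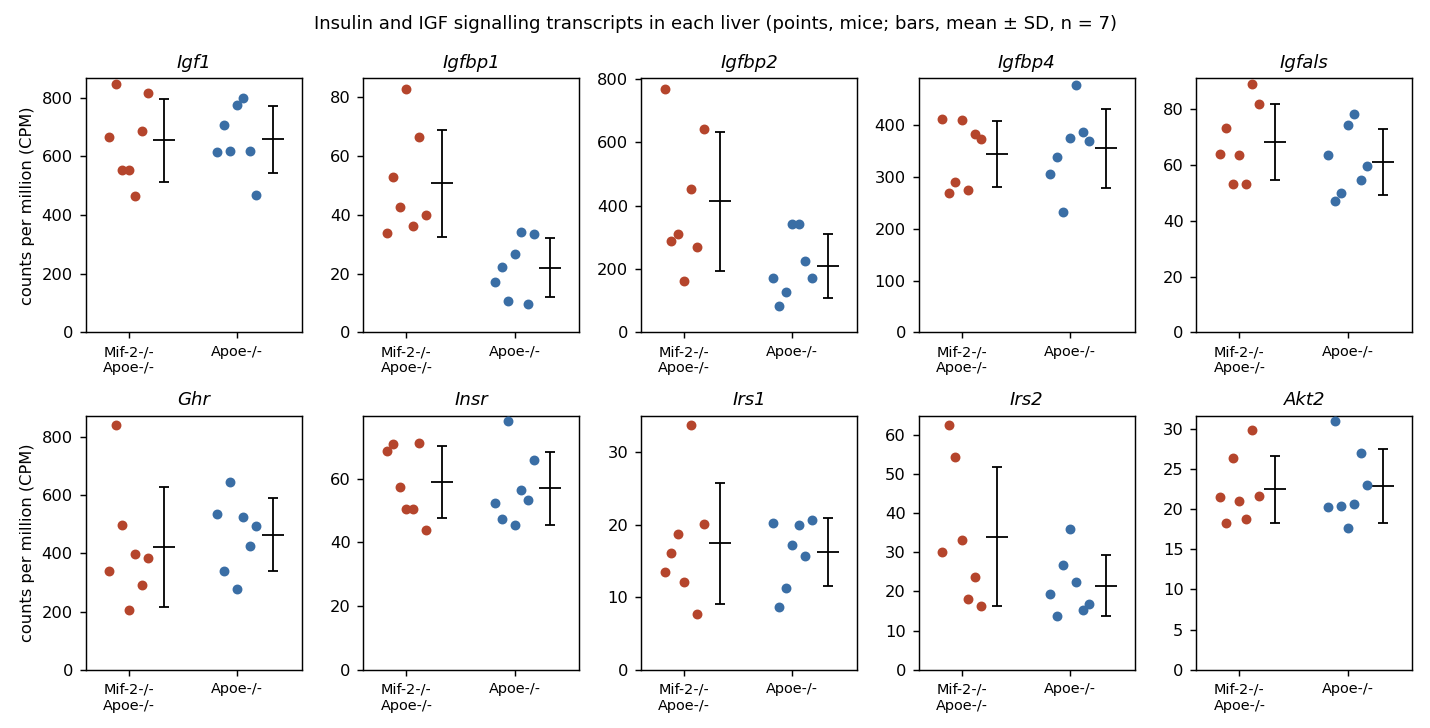
Level of each of the 10 transcripts (y axis, CPM, starting at 0) in each mouse, Mif-2-/-Apoe-/- left and Apoe-/- right; points are mice and bars are means ± SD. For Igfbp1, 6 of the 7 Mif-2-/-Apoe-/- mice lie above every Apoe-/- mouse, whereas the other 9 genes overlap more widely.

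Igf1, the ligand (chromosome 10, 87858265 to 87937042, plus strand, mm10), did not pass the test. It had 464.6, 664.5 and 846 CPM as lowest, median and highest value in Mif-2-/-Apoe-/- mice, against 469, 619.5 and 799 CPM in Apoe-/- mice. The ranges almost coincided, and 4 of the 7 Mif-2-/-Apoe-/- mice were above the Apoe-/- mean. The log2 fold change was -0.01 (SE 0.17), and its 95% interval of -0.35 to 0.34 spans folds of 0.783 to 1.26 (edgeR adjusted p = 0.990). The spread between mice was 21.6% of the mean in Mif-2-/-Apoe-/- mice and 17.2% in Apoe-/- mice, where counting error alone gives 3.19% and 2.83%. An antisense gene, Igf1os, overlaps Igf1 and had 49 counts over all mice beside 17051 for Igf1.

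Igfbp1, a binding protein whose hepatic transcript insulin lowers (chromosome 11, 7197782 to 7202546, plus strand), was nearest to the threshold. Its lowest, median and highest levels were 33.8, 42.6 and 82.8 CPM in Mif-2-/-Apoe-/- mice, against 9.56, 22.4 and 34.2 CPM in Apoe-/- mice. The groups overlapped by 1 mouse: Apoe-/- mouse 5, at 34.2 CPM, was above Mif-2-/-Apoe-/- mouse 1, at 33.8 CPM. All 7 Mif-2-/-Apoe-/- mice were above the Apoe-/- mean, and the values rest on 49 to 233 counts per Mif-2-/-Apoe-/- mouse and 15 to 91 per Apoe-/- mouse. The fitted log2 fold change was 1.20 (SE 0.26, 95% interval 0.66 to 1.74), a fold of 2.30 (1.58 to 3.35). Its edgeR adjusted p was 0.0537, at an unadjusted p of 0.000136 and rank 24 of 9684 genes.

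This call turned on the setting. The edgeR adjusted p was below 0.05 when Apoe-/- mouse 5 or 7, or Mif-2-/-Apoe-/- mouse 1, 2, 3 or 5, was left out, with a range of 0.0285 to 0.155 over the 14 omissions. The log2 fold change stayed between 1.03 and 1.36 in these fits, and it was 1.25 (adjusted p = 0.0486) without mouse 3, the one with muscle transcripts. DESeq2 on the same genes gave 1.21 (SE 0.28, adjusted p = 0.00616).

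**Figure D2:**
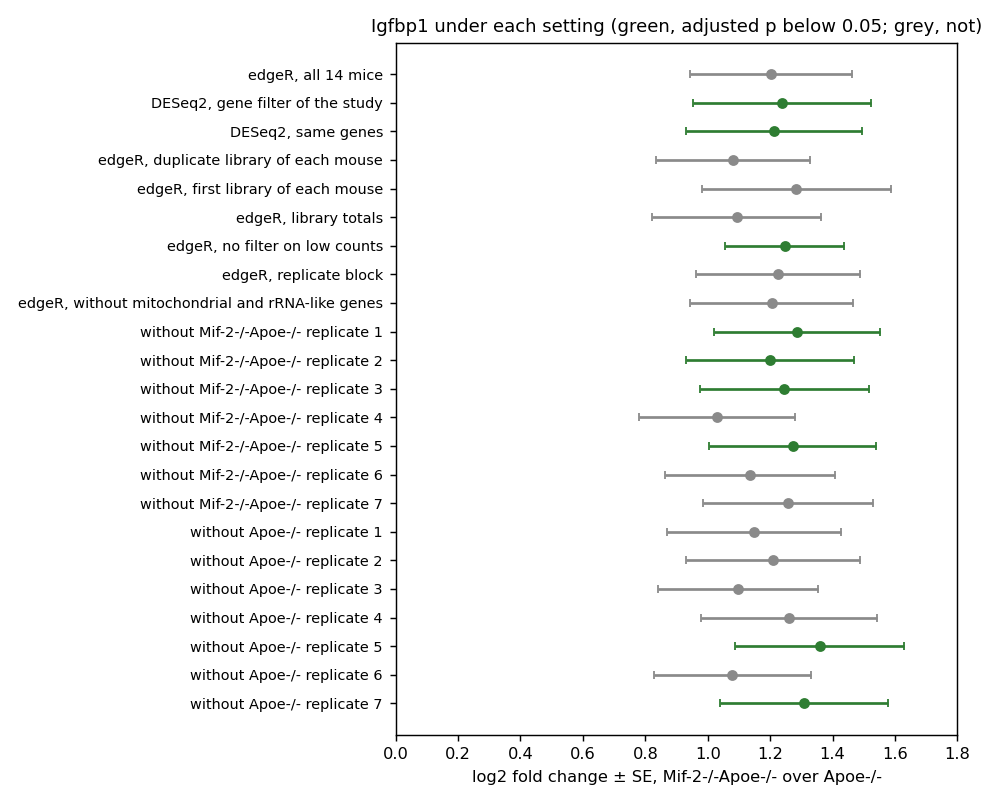
Log2 fold change of Igfbp1 (x axis, ± SE) under 23 settings (y axis): the edgeR fit on all 14 mice, 8 other processing choices and the 14 fits that each leave out 1 mouse. All 23 estimates lie between 1.03 and 1.36, and 9 have an adjusted p below 0.05 (green).

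Igfbp2 (chromosome 1, 72824503 to 72852474, plus strand) encodes a binding protein made in liver. Its lowest, median and highest levels were 163, 311 and 767 CPM in Mif-2-/-Apoe-/- mice, against 81.7, 171.5 and 342 CPM in Apoe-/- mice. Mif-2-/-Apoe-/- mice 1, 5 and 7 were above every Apoe-/- mouse, but 5 of the 7 Apoe-/- mice were above Mif-2-/-Apoe-/- mouse 4, the lowest of its group. That mouse had the highest Igfbp1 level of all 14. The log2 fold change of Igfbp2 was 0.99 (SE 0.32, 95% interval 0.32 to 1.65; edgeR adjusted p = 0.201, unadjusted p = 0.00573). It was 0.77 (adjusted p = 0.371) without Mif-2-/-Apoe-/- mouse 1 and 1.04 (adjusted p = 0.163) without mouse 3. Igfbp2 varied most between mice among the 10 genes in both groups, at 53.1% of the mean in Mif-2-/-Apoe-/- mice and 48.4% in Apoe-/- mice, against 3.92% and 5.05% from counting error.

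Igfbp4 (chromosome 11, 99041244 to 99054392, plus strand), a further binding protein, had 269, 373 and 412.5 CPM as lowest, median and highest value in Mif-2-/-Apoe-/- mice, against 232, 369.8 and 478 CPM in Apoe-/- mice. The ranges overlapped throughout, with a log2 fold change of -0.04 (SE 0.17; edgeR adjusted p = 0.931). Igfals (chromosome 17, 24865997 to 24882010, plus strand), the acid-labile subunit of the circulating complex, had 53.1, 63.9 and 88.8 CPM in Mif-2-/-Apoe-/- mice, against 47.0, 59.6 and 78.1 CPM in Apoe-/- mice. On the log2 scale the fold change was 0.15 (SE 0.16, interval at 95% -0.17 to 0.48; edgeR adjusted p = 0.678), so that a rise of up to 1.39-fold lies within the interval.

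**Figure D3:**
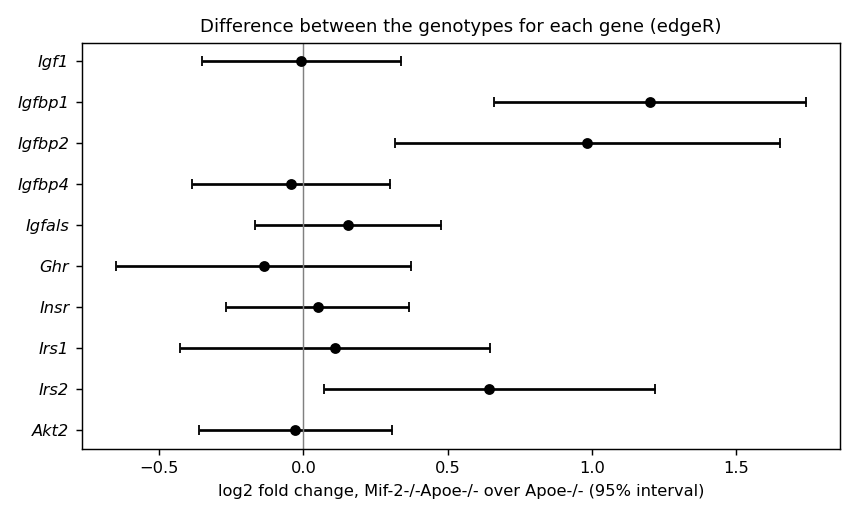
Log2 fold change (x axis, Mif-2-/-Apoe-/- over Apoe-/-, with 95% interval from edgeR) of each of the 10 genes (y axis). The intervals of Igfbp1, Igfbp2 and Irs2 lie above 0, and those of the other 7 genes include 0.

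Setting the binding partners against Igf1 within each liver removes the scaling by library size. Per 100 Igf1 counts there were 8.05 ± 3.47 Igfbp1 counts in Mif-2-/-Apoe-/- mice and 3.43 ± 1.89 in Apoe-/- mice (SD, n = 7 each). The ranges were 4.92 to 14.9 in Mif-2-/-Apoe-/- mice and 1.54 to 7.12 in Apoe-/- mice, and so overlapped. For Igfbp2 the ratio was 64.4 ± 33.6 in Mif-2-/-Apoe-/- mice and 31.4 ± 12.0 in Apoe-/- mice. Its ranges overlapped as well, at 29.4 to 115 in Mif-2-/-Apoe-/- mice and 11.6 to 44.1 in Apoe-/- mice. Igfbp4 stood at 54.4 ± 13.2 in Mif-2-/-Apoe-/- mice and 55.0 ± 13.4 in Apoe-/- mice, and Igfals at 10.5 ± 1.46 in Mif-2-/-Apoe-/- mice and 9.41 ± 1.90 in Apoe-/- mice. These ratios are descriptions and were not tested.

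**Figure D4:**
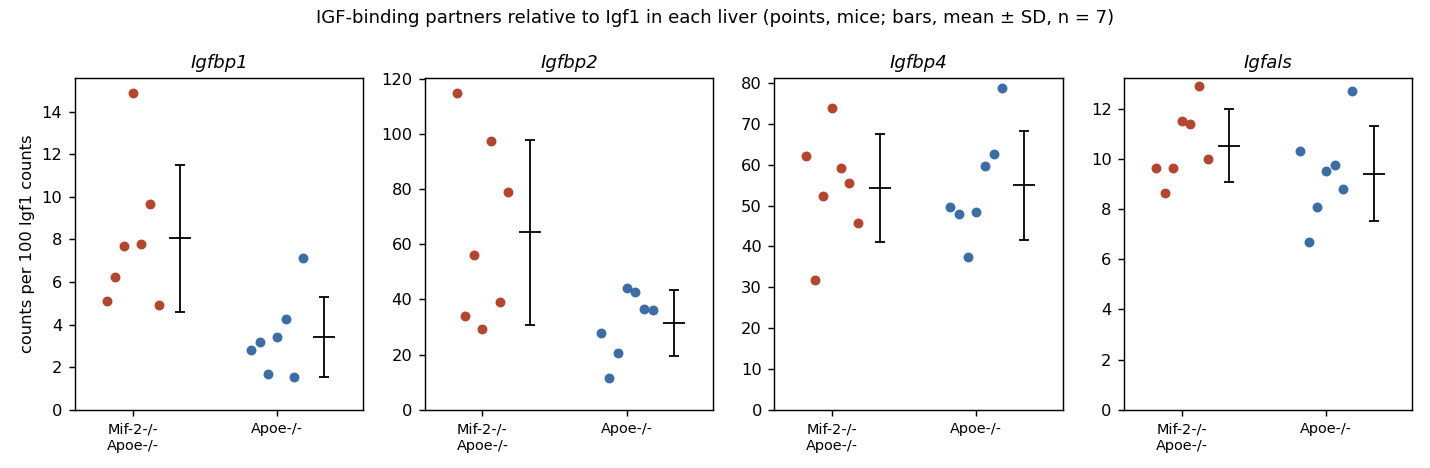
Counts of Igfbp1, Igfbp2, Igfbp4 and Igfals per 100 Igf1 counts (y axes, starting at 0) in each mouse, Mif-2-/-Apoe-/- left and Apoe-/- right; points are mice and bars are means ± SD. The means differ between the groups for Igfbp1 (8.05 and 3.43) and Igfbp2 (64.4 and 31.4), and lie close together for Igfbp4 (54.4 and 55.0). The ranges of the groups overlap in every panel.

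Ghr (chromosome 15, 3317760 to 3583492, minus strand), the growth hormone receptor, had 203.9, 384 and 841 CPM as lowest, median and highest value in Mif-2-/-Apoe-/- mice, against 279, 493 and 646.5 CPM in Apoe-/- mice. Both the highest and the lowest of the 14 livers were Mif-2-/-Apoe-/- livers, mice 2 and 4. The log2 fold change was -0.14 (SE 0.25, 95% interval -0.65 to 0.37; edgeR adjusted p = 0.843). It was -0.39 (adjusted p = 0.295) without Mif-2-/-Apoe-/- mouse 2, the library with the most ribosomal RNA (51.8%), and -0.01 without mouse 4.

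Insr (chromosome 8, 3122061 to 3279617, minus strand), the insulin receptor, had 43.9, 57.3 and 71.2 CPM in Mif-2-/-Apoe-/- mice, against 45.4, 53.4 and 78.1 CPM in Apoe-/- mice. The group ranges lay over each other, and the fold change on the log2 scale was 0.05 (SE 0.15, interval at 95% -0.27 to 0.37; edgeR adjusted p = 0.917). Irs1 (chromosome 1, 82233101 to 82291416, minus strand), a docking protein of the receptor, rests on 10 to 54 counts per Mif-2-/-Apoe-/- mouse and 16 to 53 per Apoe-/- mouse. It had 7.66, 16.2 and 33.7 CPM in Mif-2-/-Apoe-/- mice, against 8.58, 17.2 and 20.7 CPM in Apoe-/- mice. Single mice set the sign of the difference: the log2 fold change came to 0.11 (SE 0.26; edgeR adjusted p = 0.887) with all mice, to -0.13 without Mif-2-/-Apoe-/- mouse 5, which held the highest value, and to -0.01 without Apoe-/- mouse 2, which held the lowest of its group.

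Irs2 (chromosome 8, 10984681 to 11008458, minus strand), the docking protein whose transcript insulin lowers, had 16.3, 30.1 and 62.45 CPM as lowest, median and highest value in Mif-2-/-Apoe-/- mice, against 13.8, 19.4 and 35.95 CPM in Apoe-/- mice. Mif-2-/-Apoe-/- mice 2 and 3 stood above every Apoe-/- mouse, at 62.45 and 54.3 CPM, and the other 5 lay within the Apoe-/- range. Its log2 fold change came to 0.64 (SE 0.28, 95% interval 0.07 to 1.22; edgeR adjusted p = 0.321, unadjusted p = 0.0293). Leaving out mouse 2 gave 0.47 (adjusted p = 0.320) and leaving out mouse 3, the one with muscle transcripts, also gave 0.47 (adjusted p = 0.418). Genes on the opposite strand overlap both docking protein genes: Gm9747 had 5 counts over all mice beside 432 for Irs1, and 9530052E02Rik had 33 beside 689 for Irs2.

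Akt2 (chromosome 7, 27591552 to 27640826, plus strand), the main AKT kinase of insulin action in liver, had 18.3, 21.5 and 29.9 CPM in Mif-2-/-Apoe-/- mice, against 17.7, 20.65 and 31.0 CPM in Apoe-/- mice. The log2 fold change between the genotypes was -0.03 (SE 0.16, interval at 95% -0.36 to 0.31; edgeR adjusted p = 0.957), so that folds beyond 0.778 and 1.24 lie outside the interval. Its spread between mice, 18.6% of the mean in Mif-2-/-Apoe-/- mice and 20.1% in Apoe-/- mice, was close to the 16.8% and 15.3% of counting error.

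Around these 10 genes, 108 pathway genes in the files were grouped by role, and 92 of them passed the filter on low counts. By edgeR, 0 of the 92 were called, and 8 had an unadjusted p below 0.05 and were higher (Igfbp1, Igfbp2 and Irs2 among them), near the 7.37% of all genes. At that level 1 was lower, a count that again has no share of all genes beside it. Their median log2 fold change was 0.00 (43 positive, 49 negative), beside 0.01 over all genes tested. DESeq2 on the same genes called 1 of the 92, Igfbp1. Among 9 tested transcripts that insulin lowers in liver, 8 were positive, with a median of 0.23. Fbp1, a gluconeogenic phosphatase, had 225.5, 302 and 459.5 CPM as lowest, median and highest value in Mif-2-/-Apoe-/- mice, against 173.8, 220.4 and 258 CPM in Apoe-/- mice. Its ranges overlapped, although 7 of 7 Mif-2-/-Apoe-/- mice were above the Apoe-/- mean, for a log2 fold change of 0.52 (SE 0.17; edgeR adjusted p = 0.198). G6pc, the last enzyme of glucose release, had a log2 fold change of 0.48 (SE 0.30; edgeR adjusted p = 0.495).

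Transcripts that insulin raises leaned the same way: 7 of 8 tested were positive, with a median of 0.30 and 0 called. Srebf1, the lipogenic transcription factor gene, had 31.2, 98.7 and 116.5 CPM as lowest, median and highest value in Mif-2-/-Apoe-/- mice, against 24.65, 51.8 and 64.7 CPM in Apoe-/- mice. Of the 7 Mif-2-/-Apoe-/- mice, 5 were above every Apoe-/- mouse, at a log2 fold change of 0.81 (SE 0.23; edgeR adjusted p = 0.146). It passed the threshold in 2 edgeR settings, without Mif-2-/-Apoe-/- mouse 2 (adjusted p = 0.0286) and with no filter on low counts (adjusted p = 0.000603), and by DESeq2 under the filter of the study (adjusted p = 0.0485). Angptl8, an insulin-induced secreted inhibitor of lipoprotein lipase, had a log2 fold change of 1.04 (SE 0.31; edgeR adjusted p = 0.164), and 0.78 without mouse 3. Insig1, which retains sterol regulatory factors in the endoplasmic reticulum, had 0.86 (SE 0.35; edgeR adjusted p = 0.297), and Elovl6, a fatty acid elongase, had 0.28 (SE 0.29; edgeR adjusted p = 0.695).

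**Figure D5:**
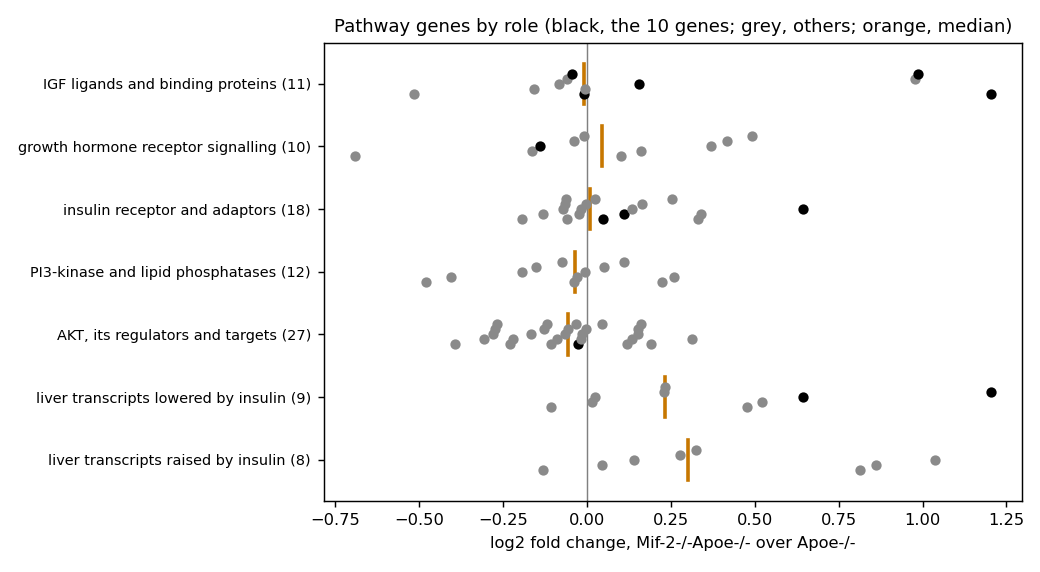
Log2 fold change (x axis, Mif-2-/-Apoe-/- over Apoe-/-) of every tested gene of 7 pathway groups (y axis, number tested in brackets; 3 genes stand in more than 1 group). Black points are the 10 genes, grey points are other genes and orange lines are medians, which lie at 0.23 and 0.30 for the groups that insulin lowers and raises and between -0.06 and 0.05 for the other 5 groups.

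Transcripts of the signalling proteins gave 0 calls. Of 27 tested genes for AKT, its regulators and its targets, 19 were negative, with a median of -0.06 and 0 called. Foxo3, a forkhead factor that AKT phosphorylates, had 16.9, 20.6 and 31.2 CPM in Mif-2-/-Apoe-/- mice, against 21.0, 30.2 and 38.0 CPM in Apoe-/- mice, a log2 fold change of -0.39 (SE 0.16; edgeR adjusted p = 0.296). The log2 fold changes were -0.31 for its relative Foxo1, -0.27 for the kinase gene Mtor and -0.27 for Gsk3b, the glycogen synthase kinase gene (edgeR adjusted p from 0.398 to 0.440). The 12 tested genes of PI3-kinase and the lipid phosphatases had a median of -0.03, with -0.48 (SE 0.25) for the phosphatase Inpp5d, -0.41 for Inpp4b, 0.26 for the regulatory subunit Pik3r2 and -0.15 for Pik3c2a, and 0 called.

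Among 18 tested genes of the insulin receptor and its adaptors, 9 were positive, with a median of 0.01 and 0 called. Grb7, an adaptor that binds activated receptors, had a log2 fold change of 0.33 (SE 0.16; edgeR adjusted p = 0.384, unadjusted p = 0.0488). Ahsg, which encodes a secreted inhibitor of the receptor, had 0.34 (SE 0.19), and the adaptor Sh2b1 had 0.25 (SE 0.18). Of the 10 tested genes of growth hormone receptor signalling, 5 were positive, with a median of 0.05 and 0 called. Onecut1, a liver transcription factor that growth hormone induces, had -0.69 (SE 0.35), Bcl6, a repressor of growth hormone targets, had 0.42 (SE 0.21), Cish, a feedback inhibitor, had 0.49 (SE 0.35) and Stat5b, which carries the signal to the nucleus, had 0.16 (SE 0.16), with edgeR adjusted p from 0.392 to 0.670. Without Mif-2-/-Apoe-/- mouse 2, Onecut1 had -1.03 (edgeR adjusted p = 0.0845) and Cish had 0.25. Of 11 tested IGF ligands, receptors and binding proteins, 4 were positive, with a median of -0.01 and 0 called. Outside the 10 genes, the binding protein gene Igfbp5 had 0.98 (SE 0.53) with all mice and -0.24 without Mif-2-/-Apoe-/- mouse 3, and Pappa, a protease that cleaves IGF-binding proteins, had -0.51 (SE 0.31).

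The covariation of the 10 genes between mice was examined within the groups. Over the 14 mice, with each group centred on its own mean of log2 CPM, 3 of 45 gene pairs had an unadjusted permutation p below 0.05 and 0 passed Benjamini-Hochberg adjustment (lowest adjusted p = 0.536). Igf1 and Igfals, both growth hormone targets, gave the highest Pearson r of 0.62 (p = 0.0266, adjusted p = 0.536) and a Spearman rho of 0.55 (p = 0.0559, adjusted p = 0.705) by permutation. The r was 0.79 in Mif-2-/-Apoe-/- mice and 0.41 in Apoe-/- mice, and 0.65 without the 2 mice farthest from the median of Igf1. Igfbp4 and Ghr gave the lowest, with an r of -0.59 and a rho of -0.63 (permutation p = 0.0248 and 0.0246, adjusted p = 0.536 and 0.705), and an r of -0.35 without the 2 mice farthest from the median of Igfbp4. Within single groups of 7 mice no pair was tested, and the values given next are the largest in size, picked from all pairs in both groups. Igfbp2 and Igfals had an r of 0.90 in Apoe-/- mice and -0.003 in Mif-2-/-Apoe-/- mice. Igfbp1 and Igfbp2 had an r of -0.90 in Mif-2-/-Apoe-/- mice and 0.29 in Apoe-/- mice. For Irs2 and Akt2 the r was -0.03 in Mif-2-/-Apoe-/- mice and -0.89 in Apoe-/- mice. Across the whole liver profile, among 4444 other genes with a mean of at least 20 CPM, the genes most like Igfbp1 were Naprt (group-centred r = 0.88), Gm49207 (0.83) and Mrpl21 (0.80). The genes most like Igfbp2 were Cyp1a2 (r = 0.92), Car8 (0.92) and Abcg8 (0.91), and the gene most like Ghr was Pdlim5 (r = 0.95). These are descriptions over 14 mice that share library depth and RNA quality within each mouse.

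Some transcripts outside the pathway moved with the groups. Immediate early genes, which respond within minutes to stimuli that include tissue handling, summed over 7 genes to 94.9 to 264 CPM in Mif-2-/-Apoe-/- mice and 63.9 to 174 CPM in Apoe-/- mice (two-sided exact permutation p = 0.00641, n = 7 each). All 5 of these that could be tested had an edgeR unadjusted p below 0.05 and were higher, beside 7.37% of all genes. Of the 5, 0 were called by edgeR (Fos, log2 fold change 2.10, adjusted p = 0.0504), and 0 of the 7 were at 0 in all mice. Mif-2-/-Apoe-/- mouse 4, with the highest Igfbp1 level, had the lowest immediate early sum of its group (94.9 CPM), and Apoe-/- mouse 5, with the highest Igfbp1 level of its group, had the highest sum (174 CPM). Of 8 Kupffer cell and macrophage markers, 4 had an edgeR unadjusted p below 0.05 and were higher, beside 7.37% of all genes. Among these, Timd4, a receptor of resident Kupffer cells, had a log2 fold change of 1.30 (edgeR adjusted p = 0.0373). The other 4 had 0.35 (Vsig4), 0.16 (Csf1r), 0.09 (Cd5l) and 0.06 (Lyz2), with edgeR unadjusted p from 0.0634 to 0.774. The 8 markers summed to 579 to 1254 CPM in Mif-2-/-Apoe-/- mice and 667 to 902 CPM in Apoe-/- mice (exact permutation p = 0.217, n = 7 each). Single markers of other lists also had an unadjusted p below 0.05 without a call by edgeR. The hepatocyte marker Cps1 had a log2 fold change of 0.76 (edgeR unadjusted p = 0.00218, adjusted p = 0.146). Of the sinusoidal endothelial markers, Clec4g had 0.71 (edgeR adjusted p = 0.198), Oit3 0.46 (adjusted p = 0.384) and Lyve1 -0.47 (adjusted p = 0.306). The lymphocyte marker Ighm had 0.66 (edgeR adjusted p = 0.268). The stellate cell marker Des had 2.69 (edgeR adjusted p = 0.176), with Mif-2-/-Apoe-/- mouse 3 at 342 CPM beside a group median of 9.84 CPM. A value for Des without that mouse is not given. The part of these transcripts in the Igfbp1, Igfbp2 and Irs2 values was not tested.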

How the data were processed

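Liver RNA was purified on spin columns and sequenced by prime-seq, which tags each transcript with a sample barcode and a unique molecular identifier. The authors made raw counts per gene symbol with the zUMIs pipeline and deposited them with no normalization, and the labels name build mm10. The aligner settings, annotation release, use of strand and counting of introns are not given in the sources used here, so genes that overlap on opposite strands cannot be told apart. The 2 libraries of each mouse were summed, and mice were the replicates (7 per group).

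Genes were filtered by filterByExpr (minimum count 10), scaled by TMM and compared with the two-sided quasi-likelihood F test of edgeR, with Benjamini-Hochberg adjustment over 9684 genes and a call at adjusted p below 0.05. The study used DESeq2 with RNA integrity as a covariate. The labels give no integrity values, every fit here leaves them out, and DESeq2 without them was an alternative. Other alternatives were library totals, removal of mitochondrial and ribosomal RNA-like genes, no low-count filter, each library alone, a replicate block and leaving out each mouse. Single values were compared over all 3432 assignments of mice, and correlations used 100000 permutations within groups and log2 CPM with a prior count of 2.

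Positions come from GENCODE M21 (mm10), which held 34792 of the 36072 symbols, and promoters from RefSeq. The 10 genes and all lists were chosen with earlier results of these data known. The text names the 10 genes, Ddt, up to 4 genes of each list with the smallest unadjusted p, up to 3 genes most like a member, and marker genes that moved with the groups. The fits ran in R 4.3.3 with edgeR 4.0.16 and DESeq2 1.42.0, and summaries, permutation tests and figures in Python 3.11.15 with pandas 2.3.3, numpy 2.4.6 and matplotlib 3.10.9.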

Additional observations from a re-analysis of the deposited data

Results flagged for a closer look

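Over 66 groups of 7 mice, made of the 10 genes and the named pathway genes in each genotype, 5 held a mouse set far from the other 6 of its group. The criterion was a gap, as a share of the group's range, above Dixon's 95% critical value, which chance alone gives for about 1 in 20 groups. None of the 5 was among the 10 genes. Igfbp5 was at 71.0 CPM in Mif-2-/-Apoe-/- mouse 3, the mouse with 4814 CPM of skeletal muscle transcripts, where the next mouse was at 13.7 CPM. Onecut1 was at 57.1 CPM in Mif-2-/-Apoe-/- mouse 2, with 19.5 CPM in the next mouse, and Cish was at 24.8 CPM in the same mouse, with 11.5 CPM in the next. Pik3r2 was at 15.5 CPM in Apoe-/- mouse 3, with 11.5 CPM in the next mouse. Elovl6 was at 199.8 CPM in Mif-2-/-Apoe-/- mouse 5, with 124.6 CPM in the next mouse.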

How the results depend on the processing

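By edgeR on all 14 mice, 0 of the 10 genes, 0 of the 92 pathway genes and 21 of all genes were called. DESeq2 on the same genes called 1, 1 and 68, DESeq2 under the filter of the study 1, 2 and 96, and edgeR with no low-count filter 3, 10 and 344. The first library alone called 11 of all genes. Leaving out 1 mouse gave 0 to 1 of the 10 genes, 0 to 2 pathway genes and 7 to 118 of all genes, with the 118 without Mif-2-/-Apoe-/- mouse 2. Library totals moved the median of all genes to a log2 fold change of -0.10.

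Of the 10 genes, 5 (Igfbp1, Igfbp2, Igfals, Ghr and Irs2) kept their sign under all 22 alternatives. The other 5 changed sign, with sizes of at most 0.13 where they did. With the study's filter the log2 fold change was 0.019 for Igf1, 0.00052 for Akt2 and -0.19 for Igfbp5. With no filter it was 0.011 for Igf1, 0.00097 for Igfbp4 and 0.0055 for Akt2. The duplicate library gave 0.044 for Igf1 and -0.043 for Insr, and the first library gave -0.105 for Irs1, 0.039 for Akt2 and -0.027 for Stat5b. Library totals gave -0.062 for Insr, and DESeq2 on the same genes gave -0.21 for Igfbp5. Leaving out 1 mouse gave -0.076 to 0.062 for Igf1, -0.12 to 0.042 for Igfbp4, -0.13 to 0.23 for Irs1, -0.097 to 0.072 for Akt2 and -0.24 to 1.18 for Igfbp5. The cause of these shifts was not tested.

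The labels do not say that equal replicate numbers pair mice. The group-centred profiles of the 7 equal-numbered pairs correlated at -0.43 to 0.15, with 2 above 0.1. Unequal-numbered pairs were not set beside them, so these values cannot decide whether mice were paired. With the replicate number as a block, 0 of the 10 genes and 14 of all genes were called, and the adjusted p of Igfbp1 was 0.102. The correlations between genes gave 0 calls on library totals as well. The interval of Irs1, which has 10 to 54 counts per Mif-2-/-Apoe-/- mouse, spans folds from 0.743 to 1.57. Its spread between mice was 47.8% of the mean in Mif-2-/-Apoe-/- mice and 29.1% in Apoe-/- mice, against 19.1% and 18.4% from counting error.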
